A study of Drosophila melanogaster with 6 samples.

Results

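Aminoacyl-tRNA synthetases join each amino acid to its tRNA, the step on which the accuracy of protein synthesis rests. Animal cells charge tRNAs both in the cytoplasm and in the mitochondria, and in Drosophila the enzymes for both are encoded in the nucleus. The 35 genes described here were chosen by symbol, as the protein-coding genes named with a three-letter amino acid code (or GluPro) followed by RS, with or without the suffix -m or alpha and beta for subunits. The annotation writes alpha and beta before the name (alpha-PheRS, beta-PheRS), not as a suffix, and both genes were taken as members. They are 35 of the 13986 protein-coding genes annotated on dm6. The 20 genes without the suffix are called cytoplasmic below, and the 15 genes with -m mitochondrial. In RefSeq, the product of all 35 was named a tRNA synthetase, with the word mitochondrial in 15 of 15 genes with -m and 0 of 20 without it. The only other gene with such a product name was Slimp, which the symbol rule leaves out. The genes lie on 2L (6), 2R (8), 3L (10), 3R (7) and X (4).

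The data came from chromatin immunoprecipitation and sequencing (ChIP-seq) of a Myc-tagged Cyclin G in wing imaginal discs, the larval tissue that forms the adult wing, of female larvae of the last instar kept at 25 °C. The 6 libraries comprised 2 Myc-CycGΔP ChIP replicates and their 2 inputs, from +/UAS-CycGΔP; da-Gal4/+ discs, and 1 mock ChIP and its input from da-Gal4/+ discs, which carry the driver without the transgene. CycGΔP lacks the PEST-rich domain, and da-Gal4 is a ubiquitous driver, so a peak reports the tagged, shortened protein and not the endogenous one. Discs were pooled by 600 per chromatin preparation. Both replicates and their inputs had been combined by the authors into 1 list of 3363 peaks without height or score, so no value below has a replicate error, and the depth behind a peak is unknown. The intervals are 95% Wilson intervals over genes and cover counting error only. No peaks of the mock ChIP were analysed here, and a list of positions holds nothing by which the tissue could be checked against marker genes.

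Of the synthetase genes, 1 of 35 had an annotated transcript start inside a peak (2.86%, interval 0.506 to 14.5%), against 795 of all 13986 protein-coding genes (5.68%). That gene was beta-PheRS, which encodes the beta subunit of the cytoplasmic phenylalanyl-tRNA synthetase. Its membership rests on reading alpha and beta before the symbol as part of the rule: with both such names left out, an alternative chosen after seeing the data, 0 of 33 members had a start inside a peak. A peak in the gene body with no start covered occurred in 0 of 35 members, which allows a share of up to 8.57%, against 265 of all genes (1.89%). Counting any overlap of at least 1 bp, 1 of 35 members was bound, against 1060 of all genes (7.58%). The members' share at the start thus lay below that of all genes, and its interval included it.

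The peak at beta-PheRS (FBgn0039175, dm6 chr3R:24250460-24252679, minus strand) spanned chr3R:24252543-24252880. It was 338 bp wide and extended from 201 bp upstream to 136 bp downstream of the only annotated start, at position 24252679. It covered 137 of the 184 bp of exon 1 of 5, which comprised the 126 bp of the 5′ untranslated region and 11 bp of coding sequence. Only the beta-PheRS start lay inside it. Its upstream end also covered 55 bp of the 3′ end of jar, the myosin VI gene, which lies on the same strand 146 bp from beta-PheRS and whose nearest start is 6809 bp away. Every 75 bp word of the peak, the read length of these libraries, occurred once in the genome. Of its bases, 55 were repeat-masked.

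The centre of this peak lay 32.5 bp upstream of the start. Over all 798 pairs of a protein-coding gene and a peak covering its start, the median centre lay 71.25 bp upstream (quartiles 108 and 41.1 bp upstream), and 87.8% of the centres were upstream. The beta-PheRS centre was thus nearer to the start than the inner quartile. The median width over these pairs was 322 bp (quartiles 278 and 412 bp). Of 640 peaks covering a start of any gene, 390 (60.9%) were narrower than the peak at beta-PheRS, against 46.1% of all peaks in the list.

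The promoter of this member is shown because it is the only one of the 35 under a peak, with 2 others for contrast. TrpRS-m, the mitochondrial tryptophanyl-tRNA synthetase, has the start nearest to a peak among members that have none. The gene alpha-PheRS encodes the other subunit of the enzyme to which beta-PheRS contributes, and was chosen after its values were seen. The sequences are from dm6, on the strand of the gene, and each ends with the first 30 transcribed bases. They begin 146, 125 and 220 bases before the start, at most 220 and never inside the next gene upstream. Capitals mark matches to the 9 motifs searched and to 1 added core, described below.
beta-PheRS, chr3R:24252650-24252825, minus: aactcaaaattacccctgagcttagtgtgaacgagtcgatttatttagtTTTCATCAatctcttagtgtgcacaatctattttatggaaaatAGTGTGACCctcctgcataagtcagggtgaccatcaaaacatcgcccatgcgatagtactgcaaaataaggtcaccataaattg
TrpRS-m, chr3L:17849602-17849756, plus: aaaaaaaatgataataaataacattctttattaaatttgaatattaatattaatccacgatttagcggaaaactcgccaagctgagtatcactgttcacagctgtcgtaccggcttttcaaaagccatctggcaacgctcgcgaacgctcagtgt
alpha-PheRS, chrX:8145573-8145822, minus: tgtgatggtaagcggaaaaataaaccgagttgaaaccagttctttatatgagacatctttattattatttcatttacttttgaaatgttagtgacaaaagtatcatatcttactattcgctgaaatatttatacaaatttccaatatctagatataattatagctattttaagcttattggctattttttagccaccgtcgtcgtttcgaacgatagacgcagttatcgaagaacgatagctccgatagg
All 3 are poor in G and C, with 38.6% in the window of beta-PheRS, 36.8% in that of TrpRS-m and 31.6% in that of alpha-PheRS.

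In the beta-PheRS window, the first capitals, TTTCATCA, begin 97 bases before the start and match on the opposite strand the composite site TGATGNAA, a sequence to which ATF4 and its partners of the C/EBP family bind in mammals. The second, AGTGTGACC, begin 54 bases before the start and match on the opposite strand the core GGTCACACT of Motif 1, a common Drosophila core promoter element. This core was searched after the sequence had been seen. The full Motif 1, which adds 1 base on each side, was not matched there. Both matches lay inside the peak. The windows of TrpRS-m and alpha-PheRS held no match to any of these motifs.

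Phenylalanyl-tRNA synthetase of the cytoplasm is assembled from alpha and beta subunits, whereas the mitochondrial enzyme is a single chain encoded by PheRS-m. The peak was at the gene of 1 subunit. The start of alpha-PheRS (FBgn0030007, chrX:8143904-8145602) lay 15.7 kb from the nearest peak, which covered the start of CG2116. The start of PheRS-m (FBgn0275436, on 2R) lay 4.50 kb from its nearest peak, which was inside CtsL1, a cathepsin L gene, and covered no start. Whether the 2 subunit genes differ in occupancy cannot be tested in a list without values per replicate.

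**Figure D1:**
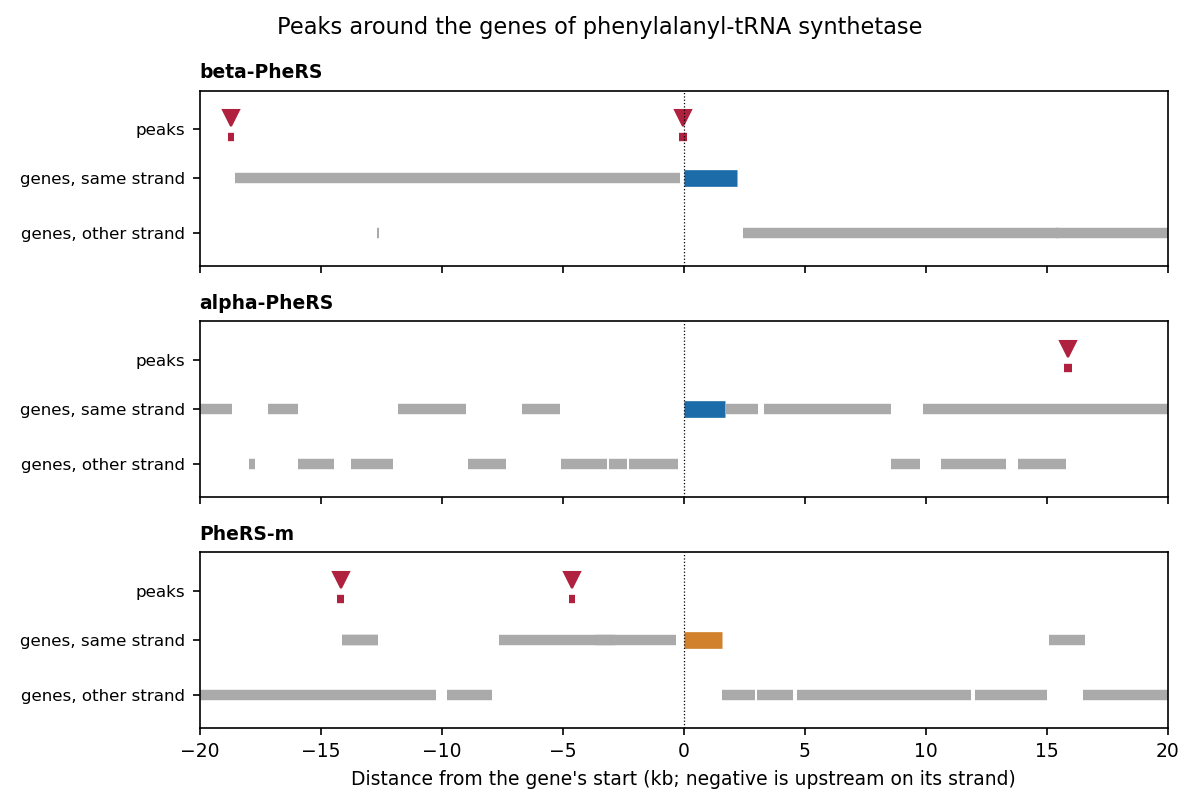
Map of 20 kb on each side of the starts of beta-PheRS, alpha-PheRS and PheRS-m, with distance from the start in kb on the gene's own strand (negative is upstream). Coloured bars are the named gene, grey bars its neighbours, and red marks the peaks; of the 3 starts, only that of beta-PheRS is under a peak, and the alpha-PheRS start lies 15.7 kb from one.

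The design of the gene family offers the comparison of cytoplasmic with mitochondrial enzymes. A start was inside a peak in 1 of 20 cytoplasmic genes (5.00%, interval 0.888 to 23.6%) and in 0 of 15 mitochondrial genes, which allows a share of up to 20%. The difference was 5.00 percentage points, with a Newcombe 95% interval from -15.8 to 23.6, so that no difference was detectable with this number of genes. The interval does not show that the groups are alike. For 5 amino acids (Gln, Gly, His, Lys and Thr) no gene with -m was found, and whether these cytoplasmic genes also encode a mitochondrial enzyme was not examined. Without these 5 genes, the difference was 6.67 percentage points (interval -14.4 to 29.8).

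The 19 cytoplasmic genes without a peak were AlaRS, alpha-PheRS, ArgRS, AsnRS, AspRS, CysRS, GlnRS, GluProRS, GlyRS, HisRS, IleRS, LeuRS, LysRS, MetRS, SerRS, ThrRS, TrpRS, TyrRS and ValRS. GluProRS encodes 1 protein that charges both glutamate and proline tRNAs. All 15 mitochondrial genes were without a peak, from AlaRS-m, ArgRS-m, AsnRS-m, AspRS-m and CysRS-m to GluRS-m, IleRS-m, LeuRS-m, MetRS-m and PheRS-m, and to ProRS-m, SerRS-m, TrpRS-m, TyrRS-m and ValRS-m. The windows of 250 bp on each side of the 5′-most starts were in unique sequence throughout in 35 of 35 members. Over all genes this held for 13465 of 13986, and 96.9% were at least 90% unique. Reads of 75 bp could thus be placed at the 5′-most start of every member, and further starts were not examined for this. The members have 45 annotated starts in all, of which 1 was inside a peak, and 26 of 35 members (74.3%) have a single start, against 73.5% of all genes. Their median length was 2727 bp, against 2162.5 bp over all genes, and the median GC content around the start was 39.1%, against 41.1%.

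The family was next set beside 3 other groups of translation genes defined by symbol. Starts were inside a peak in 1 of 35 synthetase genes and in 46 of 93 genes of cytoplasmic ribosomal proteins (49.5%, interval 39.5 to 59.4%), a difference of -46.6 percentage points (interval -56.9 to -31.3). Translation initiation factors (eIF symbols) were bound in 8 of 44 genes (18.2%, interval 9.51 to 32.0%), a difference of -15.3 points (interval -29.3 to -0.782). Proteins of the mitochondrial ribosome were bound in 5 of 73 genes (6.85%, interval 2.96 to 15.1%), a difference of -3.99 points whose interval, -12.5 to 8.31, included 0. The synthetase share lay below that of cytoplasmic ribosomal protein genes, with an interval that excluded 0. It lay below that of the initiation factors by a margin whose interval ended close to 0. The paper had already reported cytoplasmic translation as enriched among genes bound in this same list. The gap to ribosomal protein genes is therefore not an independent result. Genes of a family are not replicates, and these intervals treat each gene as an independent draw.

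**Figure D2:**
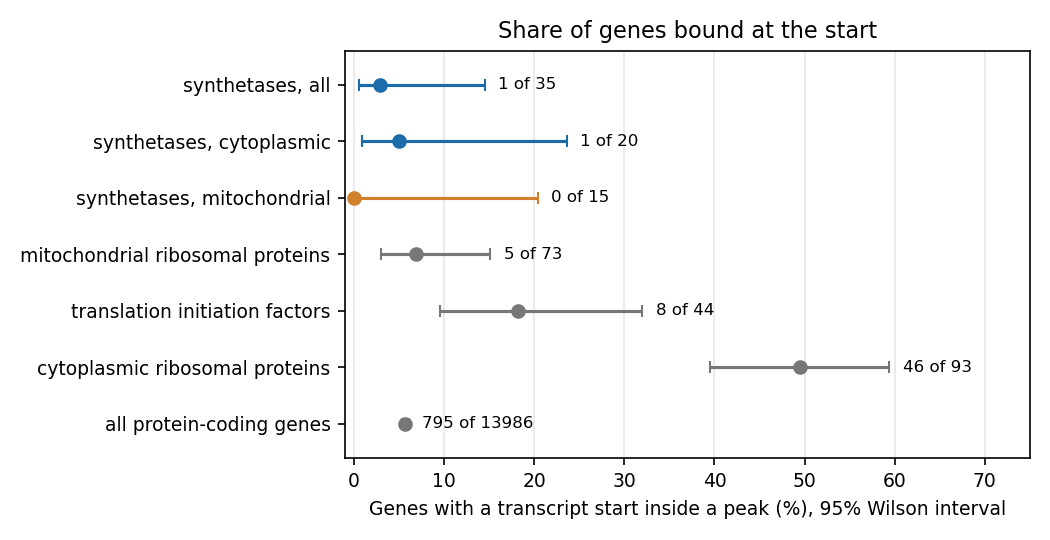
Share of genes with an annotated start inside a peak, in percent, for the synthetase genes, their 2 kinds, 3 other groups of translation genes and all protein-coding genes; points are shares, bars 95% Wilson intervals, and the counts stand beside them. The synthetase share of 2.86% lies far below the 49.5% of cytoplasmic ribosomal proteins and has an interval that includes the 5.68% of all genes.

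Distances from the start to the nearest peak were then examined, since a peak may lie near a gene without touching it. The median over the 35 members was 39.6 kb (quartiles 12.4 and 121 kb, range 0 to 256 kb), against 37.4 kb over 13984 protein-coding genes on sequences with a peak (quartiles 12.6 and 85.5 kb). Within 1 kb of a start, a peak was found for 1 member (2.86%), against 7.90% of all genes, and within 5 kb for 3 members (8.57%), against 14.3%. Within 10 kb the shares were 22.9% of members (8 genes) and 21.5% of all genes. At the far end, 10 members (28.6%) had a start more than 100 kb from any peak, against 20.6% of all genes. The medians were 39.6 and 37.4 kb, and the members' share was the lower one at the 2 shorter distances, where the share of all genes stayed inside the members' intervals (0.506 to 14.5% and 2.96 to 22.4%).

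**Figure D3:**
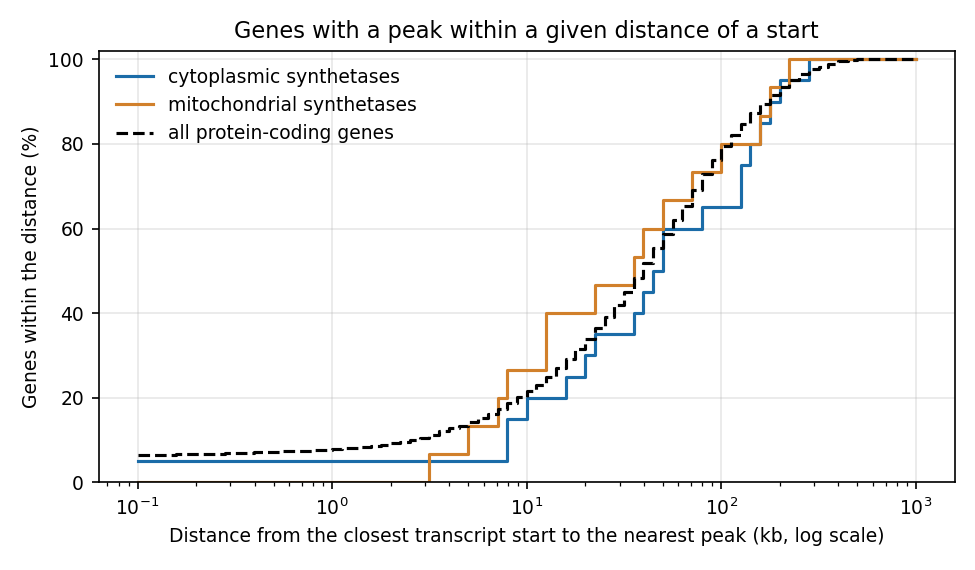
Cumulative share of genes, in percent, with a peak within a given distance of the closest transcript start, in kb on a log scale, for 20 cytoplasmic and 15 mitochondrial synthetase genes and all protein-coding genes (dashed). The mitochondrial line starts at 0 and lies above the cytoplasmic one at most distances beyond 3 kb; at 100 kb the cytoplasmic line is at 65.0%, against 79.4% of all genes, and the medians are 44.6 kb for cytoplasmic, 33.2 kb for mitochondrial and 37.4 kb for all genes.

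Among members without a peak, the nearest start was that of TrpRS-m, 2.97 kb from a peak that covered the start of MED19, which encodes a subunit of the Mediator complex. PheRS-m followed at 4.50 kb and AlaRS-m, the mitochondrial alanyl-tRNA synthetase, at 6.34 kb from a peak at the start of Srp54k, a subunit of the signal recognition particle. The farthest were LeuRS, the cytoplasmic leucyl-tRNA synthetase, at 256 kb and its mitochondrial counterpart LeuRS-m at 212 kb. Measured from any part of the gene, MetRS-m came closest, with its 3′ end 1.56 kb from a peak, but in that peak only 8.59% of the 75 bp words occurred once in the genome. Its start lay 12.5 kb away. TyrRS and GluRS-m are neighbours on 3L, 171 bp apart on the same strand, and share their nearest peak, at 169 and 171 kb.

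Of the nearest peaks of the 34 members without one, 22 covered the start of another gene and 12 covered none. The covered starts included those of ribosomal protein genes of the cytoplasm or the mitochondria. These were RpL30 for AsnRS (122 kb), RpL8 for ProRS-m (64.4 kb) and mRpS16, together with cg, for CysRS-m (12.3 kb). The remaining covered starts were of genes without a ribosomal protein symbol, such as emb for AlaRS (21.6 kb) and shi for ArgRS (47.8 kb). For 29 of 35 members the nearest peak lay in unique sequence. The exceptions were IleRS, LeuRS, LeuRS-m, SerRS, TrpRS and MetRS-m, whose nearest peaks lay in repeated sequence. Of all 3363 peaks in the list, 739 were unique. Shares of nearest peaks that cover a start or are unique are not given here over all genes. Neither count is therefore shown to be particular to the members. With unique peaks only, an alternative chosen after seeing the data, the median distance was 47.5 kb for the members and 55.8 kb for all genes, so the order of the 2 medians turned round.

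**Figure D4:**
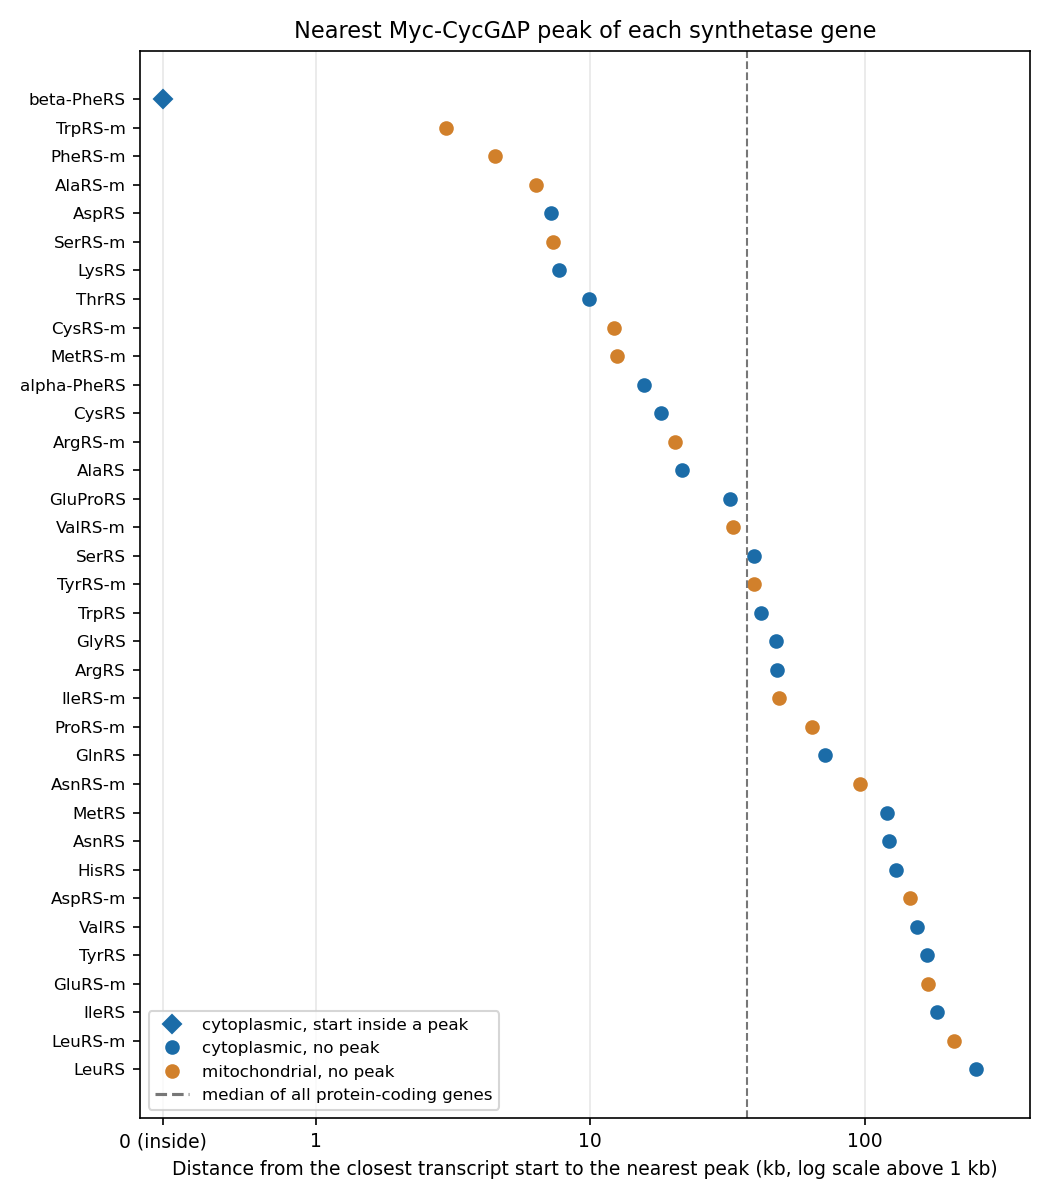
Distance in kb (log scale above 1 kb) from the closest transcript start to the nearest peak for each of the 35 synthetase genes, ordered by distance, with cytoplasmic genes in blue and mitochondrial genes in orange. The dashed line is the median of all protein-coding genes, 37.4 kb; beta-PheRS is at 0, TrpRS-m follows at 2.97 kb and LeuRS is the farthest at 256 kb.

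By enzyme, the median distance was 44.6 kb in cytoplasmic genes (quartiles 17.5 and 124 kb) and 33.2 kb in mitochondrial genes (quartiles 9.80 and 80.4 kb), with widely overlapping ranges. For 12 amino acids there is 1 gene of each kind. In 11 of these 12 pairs the mitochondrial gene was the nearer one, for example at 41.8 kb for TrpRS and 2.97 kb for TrpRS-m, and at 121 kb for MetRS and 12.5 kb for MetRS-m. Within these 12 pairs the exception was aspartate, with 7.18 kb for AspRS and 147 kb for AspRS-m. Left out of the pairs were the genes for phenylalanine, glutamate and proline. There, beta-PheRS at 0 kb was nearer than PheRS-m at 4.50 kb, while alpha-PheRS at 15.7 kb was farther. GluProRS at 32.3 kb was nearer than both GluRS-m at 171 kb and ProRS-m at 64.4 kb. The count of 11 of 12 pairs was made after the distances had been seen and was not tested. With unique peaks alone it was also 11 of 12.

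Promoter motifs were counted within 100 bp of the 5′-most start, on both strands, in the 35 members and in all 13968 protein-coding genes of the chromosome arms. The DNA replication-related element DRE (TATCGATA), bound by Dref, was found in 5 members (14.3%, against 7.83% of all genes): AlaRS, ArgRS, IleRS, PheRS-m and TrpRS. Motif 7 was found in 5 members (14.3%, against 7.57%), AsnRS-m, GluProRS, GlyRS, LysRS and MetRS-m, and Motif 1 in 3 (8.57%, against 3.93%), AsnRS-m, GlnRS and ProRS-m. The composite site TGATGNAA was found in 5 members (14.3%, against 2.83%), AsnRS, beta-PheRS, CysRS, GluProRS and GluRS-m. The E-box CACGTG, bound by Myc and Max, was found in LeuRS-m alone (2.86%, against 2.88%). Motif 6 was found in 0 members, against 1.67% of all genes. Only AsnRS-m, with Motif 1 and Motif 7, and GluProRS, with Motif 7 and the composite site, held more than 1 of these motifs, and the matched letters did not overlap.

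Elements tied to a position were searched on the gene's strand. The initiator, TCA followed by G or T, then T, then C or T, within 10 bp of the start, was found in 0 of 35 members, against 12.1% of all genes. The TATA box, TATA after G or C and before A or T and AA, 20 to 40 bp upstream, was found in 0 members, against 3.95%. The TCT initiator, CTTT between 2 pyrimidines on each side and typical of ribosomal protein genes, was found within 10 bp of the start in ThrRS alone (2.86%, against 0.651%). None of the 9 motifs was present in 17 members, a count given without the share over all genes, so it cannot be called high or low. Motif shares are given without intervals, so a share above or below that of all genes is not shown to differ from it. A count of 0 of 35 allows a share of up to 8.57%. This limit lies above the shares of Motif 6 and the TATA box over all genes and below that of the initiator, and no difference was tested. These counts describe letters in a window, and no binding of a factor to them was measured.

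**Figure D5:**
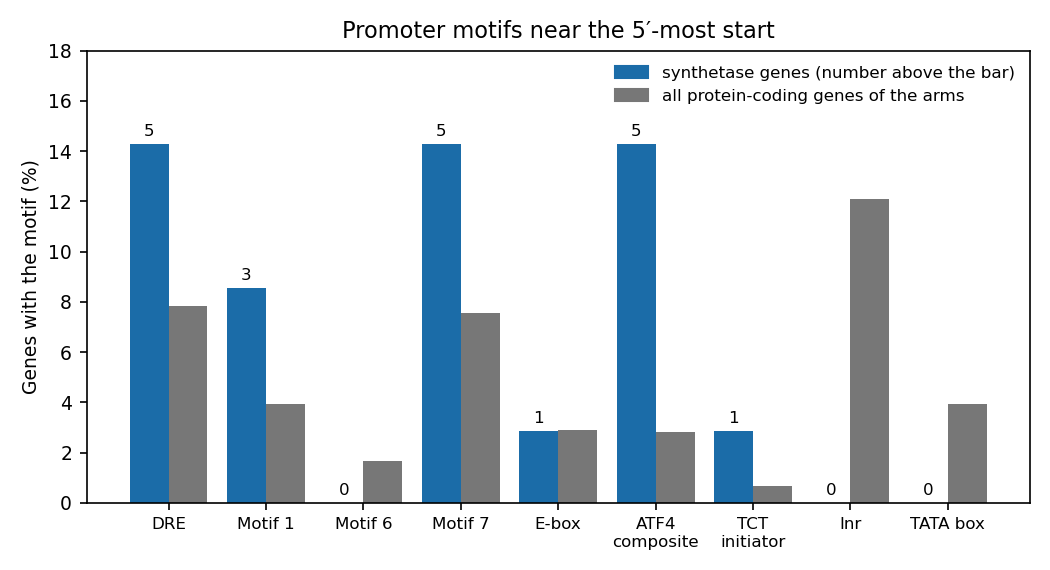
Share of genes, in percent, whose 5′-most start has the motif nearby, for the 35 synthetase genes (blue, with the number of genes above the bar) and for all protein-coding genes of the arms (grey). DRE, Motif 7 and the composite site each occur in 5 members (14.3%), and the initiator, the TATA box and Motif 6 in 0.

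The counts of the composite site depended on the window. In 4 of the 5 members the match lay downstream of the start, at 11 bp in CysRS, 49 bp in AsnRS, 63 bp in GluProRS and 91 bp in GluRS-m. In the 100 bp before the start alone it was found in beta-PheRS only (2.86%, against 1.26% of all genes). From 250 bp before to 50 bp after the start it was found in 2 members (5.71%, against 4.07%), beta-PheRS and CysRS. The core of Motif 1, GGTCACACT, was found within 100 bp in 5 members (14.3%, against 5.28%), with AspRS-m and beta-PheRS added to the 3 that hold the full motif. In the 100 bp before the start alone it was found in 2 members (5.71%, against 2.22%), AsnRS-m and beta-PheRS. Because the core was chosen after the beta-PheRS sequence had been seen, beta-PheRS is among these by construction. The shares of the core are thus no independent comparison with all genes.

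Charged tRNAs pass from the synthetases to elongation factors, and scaffold proteins hold several of the cytoplasmic enzymes in a complex. Of 16 other genes of this pathway found by symbol, 1 had a start inside a peak (6.25%, interval 1.11 to 28.3%), against 5.68% of all protein-coding genes, a share near the background. It was eEF1alpha1, which encodes an elongation factor that carries charged tRNAs to the ribosome. A peak of 314 bp covered 1 of its 4 starts, with the centre 110.5 bp upstream. The other genes of delivery, eEF1alpha2, eEF1beta, eEF1gamma and eEF1delta, had none. The scaffold genes AIMP1, AIMP2 and AIMP3 were without a peak, with the nearest at 3.91 kb from AIMP3. No peak was found at GatA, GatB and GatC, which encode the amidotransferase that makes mitochondrial glutaminyl-tRNA, at Slimp, or at the mitochondrial elongation factors mEFTu1 and mEFTu2. The start of mEFTu1 was the nearest of these, 1.06 kb from a peak at the start of mip120. Gcn2, the kinase that senses uncharged tRNA, and crc, the Drosophila ATF4, lay 61.7 and 73.6 kb from a peak.

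The substrates of the enzymes were examined by gene as well. Of 290 nuclear tRNA genes, 1 overlapped a peak (0.345%), and 17 (5.86%) lay within 5 kb of one, with a median distance of 58.1 kb. Over all protein-coding genes the values were 7.58%, 14.3% and 37.4 kb. The overlap shares are not alike in gene length, since protein-coding genes have a median length of 2162.5 bp. Whether reads can be placed uniquely at the tRNA genes was not examined, so the low count was not traced to any of these. The overlapping gene, tRNA:Phe-GAA-1-2 (chrX:6744471-6744543, minus strand), carries phenylalanine and is thus a substrate of the enzyme that beta-PheRS helps to form. It was 1 of 8 nuclear genes of tRNA-Phe. The peak, chrX:6744173-6744522, covered 52 of its 73 bp but ended 21 bp short of its start, and it also covered the start of RpL17, a ribosomal protein gene. This gene was named because it was the only one, and the coincidence of amino acid was not tested. All 22 mitochondrial tRNA genes overlapped the peak on the mitochondrial genome. They share this 1 peak, so they are not separate observations of tRNA genes, and the list gives no signal for it.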

How the data were processed

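Peaks came from the authors' deposited list of 3363 intervals in 3 columns, whose other values, start and end positions on dm6, hold no signal per sample. Per the methods of the study, reads were filtered by base quality and aligned to dm6 with Bowtie2 2.1.0. Peaks were called with MACS2 2.1.0 for each Myc-CycGΔP ChIP replicate against its input, retained by the irreproducible discovery rate between replicates and joined with bedtools. The mock ChIP took no part in this. Library input and read length were 38 ng and 75 bp for Myc-CycGΔP discs, but 5 ng and 50 bp for mock discs.

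Genes and transcript starts came from Ensembl release 115 (BDGP 6.54), with RefSeq starts (found for 35 of 35 members) as an alternative. A gene was TSS-bound where a transcript start lay inside a peak, body-bound where only the rest of the gene overlapped one by at least 1 bp. Positions are counted from 1. A peak was called unique where at least 90% of its 75 bp words occurred once in the genome. Intervals given for shares are 95% Wilson intervals and those for differences Newcombe intervals, and the limit of a count of 0 is 3 counts. Motif shares carry no intervals. No test was run over the members. The analysis used Python 3.11.15, numpy 2.4.6, statsmodels 0.14.6 and matplotlib 3.10.9, and the code was tested on planted peaks and motifs.

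The members, gene lists and motifs were chosen with earlier results of these data known. All members are named. Members with a peak, the 3 nearest to a peak and the 2 farthest are given in detail, and other genes of the pathway come from a list of 17 symbols, of which 16 were found. The alternatives were wider or unique peaks, other definitions of a bound start, overlaps of at least 50 bp, another motif window and, chosen after seeing the data, RefSeq starts, the leaving out of names with alpha or beta, the Motif 1 core and distances to unique peaks.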

Additional observations from a re-analysis of the deposited data

How the results depend on the processing

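Of 18 results, 13 stayed within 1.5 times the main value for counts and the median distance, within its interval for the difference, or at the same value for the peak offset, in each alternative run. Several of these could not move. The bound member has a single start, so choosing among its starts changed nothing. The initiator, TCT initiator and TATA box were searched at the same positions in every motif window. The interval of the difference is wide. The tally of 13 is therefore no measure of robustness. With peaks of at least the median width of the list, 365 bp, the count of synthetase genes with a start inside a peak was 0, as were the counts of any overlap and of cytoplasmic genes with a bound start, since the 338 bp peak at beta-PheRS was left out by construction; the share of all genes was then 1.95%. Where names with alpha or beta before the symbol were left out, both counts of bound starts were 0, of 33 genes in all. In both of these alternatives the difference between cytoplasmic and mitochondrial genes was 0 percentage points, inside its interval. With unique peaks the median distance was 47.5 kb, against 55.8 kb over all genes, where the order of members and all genes turned round. The composite site was found in 2 members from 250 bp before to 50 bp after the start, where the E-box was found in 2. RefSeq starts, unique peaks and starts within 100 bp of a peak left the count at 1. No paired analysis was possible because the list joins both replicates, and for the same reason no replicate could be left out. The result of the whole family rests on 1 gene, and the list gives no height or depth by which to rank its peak.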
